A study of Mus musculus with 88 samples.

Results

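The platelet-derived growth factor (PDGF) receptors and ligands described here are 4 genes, the receptors Pdgfra and Pdgfrb and the ligands Pdgfa and Pdgfb. They were listed by family name, with results of these data already known: they were chosen by the measured level of Pdgfra in bulk embryoid bodies labelled Mtf2 null against Pcl1-3 WT. Values from those embryoid bodies are therefore given as a description with no test of these genes. The 4 genes were found among the 53697 genes of the mesoderm table, the 54393 genes of the endoderm table, the 26007 genes of the bulk embryoid body table and the 15830 genes of the single-cell table.

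PDGFs are secreted dimers that bind receptor tyrosine kinases at the cell surface, and a bound receptor pairs with another, phosphorylates itself and recruits adaptors that lead to the Ras, PI3 kinase and phospholipase C pathways. The Pdgfra protein binds ligands made from Pdgfa, Pdgfb and Pdgfc, whereas the Pdgfrb protein binds mainly those made from Pdgfb and Pdgfd. In the mouse embryo Pdgfra is known as a gene of primitive endoderm and of mesoderm, and Pdgfb made by endothelium recruits mural cells (pericytes and vascular smooth muscle) that carry Pdgfrb. Mtf2 and Jarid2 encode accessory subunits, and Eed a core subunit, of Polycomb Repressive Complex 2 (PRC2), a histone methyltransferase complex associated with gene silencing.

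Mouse embryonic stem cells (ESCs) were grown in serum with LIF and differentiated in 3 experiments. In the directed series, E14 WT, Mtf2 null and Jarid2 null monolayers were sampled undifferentiated and after 5 h, 24 h and 48 h, with 2 libraries per genotype and time, 24 libraries in the mesoderm series and 24 in the endoderm series. Mesoderm was induced for 24 h with Activin A, BMP4, the GSK3 inhibitor CHIR99021 and FGF2, then with BMP4 and an inhibitor of Activin/TGF-beta receptors, and endoderm with Activin A, CHIR99021 and FGF2, then with Activin A and an inhibitor of BMP receptors. Embryoid bodies (aggregates that differentiate after LIF is withdrawn) were profiled in bulk on days 0, 2, 4 and 7 in lines labelled Mtf2 null, Jarid2 null and Eed null and in the Pcl1-3 WT, JM8 WT and J1 WT lines, and as single cells on days 0, 4, 7 and 10 in WT cells and in cells null for Mtf2, Jarid2 or Eed, with 1 library per genotype and day. The labels give the strain E14 for all directed and single-cell samples. The paper names Pcl1-3, JM8 and J1 as the wild-type lines matched in background to the Mtf2, Jarid2 and Eed null lines. The E14 WT cells of the directed and single-cell samples are not named as such a match. In these samples 1 line stood for each genotype, and a genotype and its line cannot be told apart. The labels do not say that the 2 directed libraries of a group came from separate cultures and the authors describe them as technical, so p-values measure only the spread between such libraries.

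By total estimated counts the directed libraries held 9111880 to 16898264 in the mesoderm and 9889592 to 16372804 in the endoderm series. Mtf2 stood at 206 to 509 CPM (counts scaled to a common library total) in WT and 175 to 467 CPM in Jarid2 null libraries, and at 30.2 to 38.2 CPM in Mtf2 null libraries, so this gene was low in every library labelled for its loss and in no other of the 48. Jarid2 RNA stood at 307 to 661 CPM in WT and 189 to 622 CPM in Jarid2 null libraries and was not called lower in any comparison, so in the directed series its RNA level does not check that label. In single cells Jarid2 was lower on days 0, 4, 7 and 10. It stood at 146, 115, 185 and 132 UMI CPM in Jarid2 null and at 594, 275, 290 and 215 in WT libraries. On day 7 Mtf2 null cells were also at 184. In the bulk embryoid bodies of day 0, Mtf2 was at 1628 normalised counts in the library labelled Mtf2 null and at 667 in the one labelled Jarid2 null, and 83 of 84 genes that separated these labels on the 3 later days had the opposite sign on day 0. On days 2, 4 and 7 Mtf2 stood at 1155, 1220 and 885 in the libraries labelled Mtf2 null. It stood at 2229, 1666 and 1986 in Pcl1-3 WT and at 2080, 953 and 891 in those labelled Jarid2 null. The Mtf2 null label was thus below Pcl1-3 WT on each of these days. On day 4 it was above the Jarid2 null label, so Mtf2 RNA does not settle the later labels. Eed RNA in the bulk embryoid bodies labelled Eed null, 615.03, 1078, 563 and 313 normalised counts on the 4 days, was not lower than in J1 WT (557, 1297, 403 and 277) on 3 of 4 days, so it does not check that label, whereas in single cells it was at 1.33 to 11.5 UMI CPM in Eed null and 115 to 478 in WT libraries. Labelled cell fates were checked too: in WT at 48 h the summed level of the definitive endoderm markers Foxa2, Sox17 and Cxcr4 was 0.780 to 0.848 CPM in the endoderm series, near 0, and that of the early mesoderm markers T, Mesp1, Mixl1 and Tbx6 was 0.897 to 1.11 CPM in the mesoderm series, where T had been at a mean of 57.7 CPM at 24 h and cardiac and lateral mesoderm markers summed to 9.37 to 11.0 CPM in undifferentiated WT cells and 21.3 to 25.8 CPM at 48 h. The columns of Jarid2 null endoderm at 48 h carry 28h in their names and were assigned to 48 h by the library numbers in the labels.

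In the annotation of the mouse genome build GRCm38 (GENCODE M21), Pdgfra (ENSMUSG00000029231) lies on the plus strand of chromosome 5 from 75152292 to 75198215 and Pdgfa (ENSMUSG00000025856) on the minus strand of chromosome 5 from 138976014 to 138997370. Pdgfb (ENSMUSG00000000489) lies on the minus strand of chromosome 15 from 79995874 to 80014977. An antisense gene, 6330403L08Rik, shares exon bases with Pdgfa and held at most 109 counts in a library. The strand setting of the counting is not given in the sources used here, so reads of this pair cannot be told apart. The small genes inside Pdgfra held at most 1 count in a library. Gm41361, which overlaps Pdgfb without sharing exon bases, held at most 3.

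The promoters of Pdgfra and Pdgfa are shown, the receptor and the ligand whose RNA changed most often in the directed series. No window of Pdgfb was in the reference used, and Pdgfrb was left out because the sequence of its chromosome was not printed here. RefSeq windows of 300 bases on GRCm38.p6, 250 before and 50 from each annotated start, were matched by symbol and are given for 2 of the 4 genes. They are printed 5′ to 3′ on the strand of the gene with each CG pair in capitals, since CG-rich promoters are the usual sites of PRC2. The first is Pdgfra at chr5:75152001-75152300 on the plus strand, and the others are 2 starts of Pdgfa at chr5:138994232-138994531 and chr5:138994895-138995194 on the minus strand.
Pdgfra: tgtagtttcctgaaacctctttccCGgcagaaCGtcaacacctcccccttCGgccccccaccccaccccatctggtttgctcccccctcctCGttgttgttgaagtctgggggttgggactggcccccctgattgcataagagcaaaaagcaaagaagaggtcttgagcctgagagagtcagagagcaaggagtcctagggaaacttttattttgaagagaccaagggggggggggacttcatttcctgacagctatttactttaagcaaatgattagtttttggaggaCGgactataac
Pdgfa, inner start: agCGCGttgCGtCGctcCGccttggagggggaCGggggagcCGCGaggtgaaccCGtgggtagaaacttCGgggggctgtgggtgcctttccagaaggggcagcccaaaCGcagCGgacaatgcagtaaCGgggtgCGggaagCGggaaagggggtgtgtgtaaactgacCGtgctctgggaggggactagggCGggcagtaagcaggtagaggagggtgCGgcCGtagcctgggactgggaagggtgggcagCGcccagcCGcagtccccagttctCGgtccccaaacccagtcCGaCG
Pdgfa, outer start: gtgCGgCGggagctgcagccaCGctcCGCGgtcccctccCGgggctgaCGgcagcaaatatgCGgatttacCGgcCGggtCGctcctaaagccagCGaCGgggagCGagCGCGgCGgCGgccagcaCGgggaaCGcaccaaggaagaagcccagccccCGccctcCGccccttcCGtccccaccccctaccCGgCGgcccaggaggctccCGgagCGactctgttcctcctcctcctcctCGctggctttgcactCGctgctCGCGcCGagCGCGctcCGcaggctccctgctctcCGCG
The Pdgfra window held 5 CG pairs, below the median of 7 over the 32851 windows of this length. The Pdgfa windows held 24 and 37 pairs, reached by 20.0% and 5.58% of windows. The letters GATAA, searched on both strands as the core bound by GATA factors, were in none of the 3 windows and in 25.4% of all windows.

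Compared per length, Pdgfa was the most abundant of the 4 genes in the directed series. As TPM (counts over exon length, scaled to a common total), the median over the 24 libraries was 45.7 TPM in mesoderm and 28.4 TPM in endoderm for Pdgfa. The other 3 genes had medians of 0.684 to 0.843 TPM. Pdgfra ranged from 0.0694 to 10.2 TPM over both series, and Pdgfrb from 0 to 1.86 TPM. Both ligands and both receptors passed the filter on low counts in each series and were tested by edgeR with all genes, and calls needed a p under 0.001 after Benjamini-Hochberg adjustment together with an absolute log2 change over 1.

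**Figure D1:**
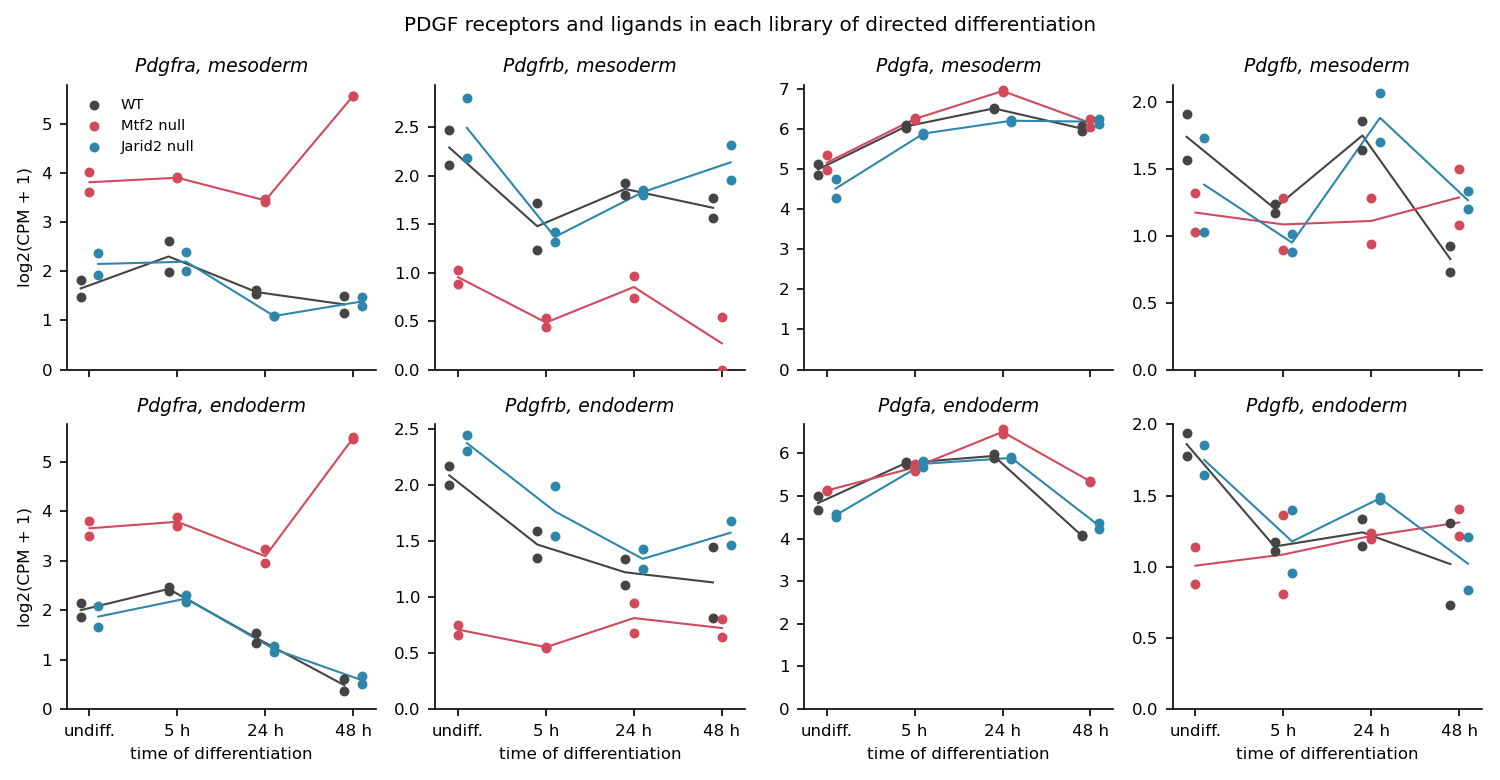
Level of the 4 genes in each directed library, as log2(CPM + 1) on the y axis (each panel has its own scale) against time of differentiation on the x axis; points are libraries coloured by genotype and lines join the means of 2 libraries. Pdgfra at 48 h lay at 42.9 to 46.9 CPM in Mtf2 null libraries and at 1.83 CPM or less in WT and Jarid2 null libraries of both series.

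Pdgfra, the receptor of widest ligand range, was higher in Mtf2 null than in WT cells at every time in both series. In undifferentiated cells of the mesoderm series it stood at 1.77 and 2.56 CPM (18 and 30 counts) in WT and at 11.2 and 15.2 CPM (120 and 147 counts) in Mtf2 null libraries. In the endoderm series it stood at 3.41 and 2.62 CPM in WT and at 10.3 and 13 CPM in Mtf2 null libraries. The groups did not overlap in either series, and the 4 Mtf2 null libraries differed from the 4 WT libraries by a log2 change of 2.26 (SE 0.217, edgeR adjusted p = 4.78e-07), a 4.8-fold higher level. The change was 2.59 (SE 0.262) within the mesoderm and 1.95 (SE 0.211) within the endoderm series. Across both series, 2 of the 4 members were called in undifferentiated Mtf2 null cells, Pdgfra higher and Pdgfrb lower, against 14% of the 17796 genes tested. Within the mesoderm series 1 member was called, against 11.1% of 18361 genes, and within the endoderm series 2, against 11% of 19261 genes.

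At 5 h the WT libraries stood at 2.98 and 5.12 CPM in mesoderm and 4.25 and 4.52 CPM in endoderm and Mtf2 null libraries at 14.2 and 13.9 CPM and at 12 and 13.6 CPM. The log2 change was 1.80 (SE 0.24) in mesoderm and 1.55 (SE 0.195) in endoderm. At 24 h the WT libraries stood at 2.08 and 1.9 CPM in mesoderm and 1.89 and 1.53 CPM in endoderm. The Mtf2 null libraries then stood at 10.2 and 9.62 CPM and at 6.74 and 8.37 CPM, and the log2 change was 2.31 (SE 0.265) and 2.15 (SE 0.226). Pdgfra was the 1 member called in each of these comparisons, against 7.56% of genes at 5 h and 5.72% at 24 h in mesoderm and 7.61% at 5 h and 6.58% at 24 h in endoderm.

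By 48 h the level of Pdgfra in Mtf2 null cells exceeded that in WT cells by more than an order of magnitude. In mesoderm the libraries stood at 1.83 and 1.22 CPM (28 and 15 counts) in WT and 46.9 and 46.5 CPM (516 and 587 counts) in Mtf2 null. In endoderm they stood at 0.52 and 0.283 CPM (6 and 3 counts) in WT and 44.4 and 42.9 CPM in Mtf2 null. The mutant levels were alike in the 2 series, while the WT level was lower in endoderm. The edgeR log2 change was 4.90 (SE 0.258, adjusted p = 1.06e-11) in mesoderm and 6.72 (SE 0.27, adjusted p = 2.54e-14) in endoderm, where the size of the fold rests on 9 WT counts. At 48 h 2 members were called in each series, against 6.82% of genes in mesoderm and 10.5% in endoderm.

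**Figure D2:**
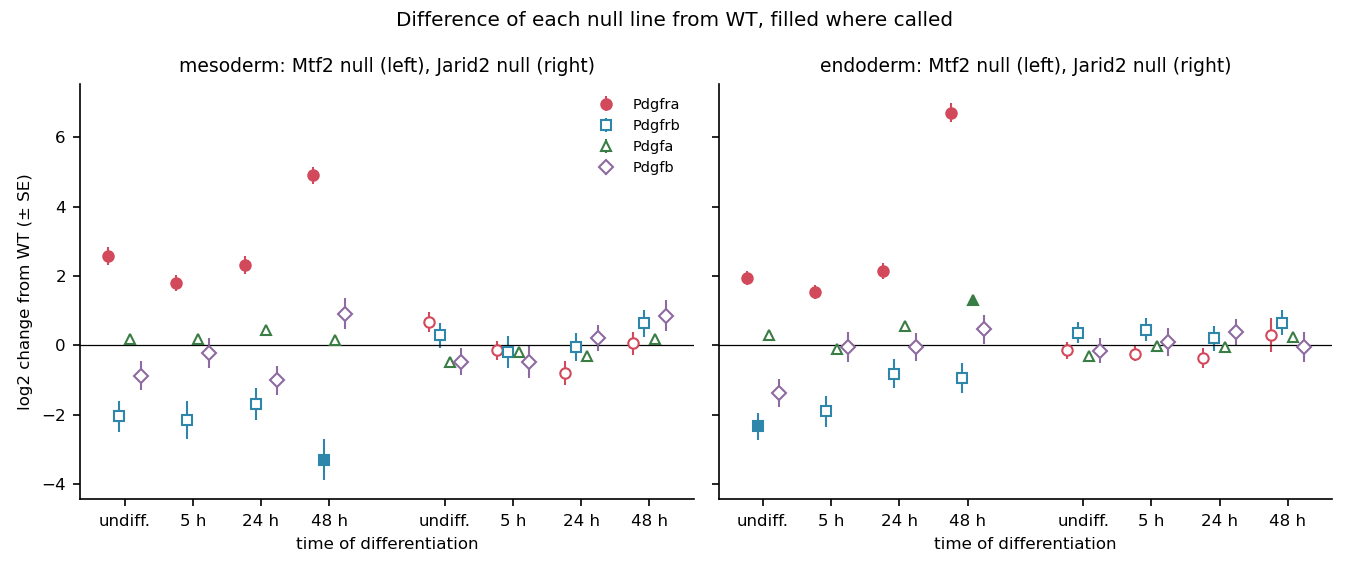
Log2 change of the 4 genes against WT with its standard error (y axis) at each time (x axis) for Mtf2 null and Jarid2 null cells of the mesoderm and endoderm series; filled points were called by edgeR. Pdgfra is filled for Mtf2 null cells at all 4 times in both series, from 1.55 to 6.72, and no Jarid2 null point is filled.

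Along the course, Pdgfra moved in opposite directions in WT and Mtf2 null endoderm. From undifferentiated cells to 48 h it fell in WT endoderm by 2.86 on the log2 scale (SE 0.365, edgeR adjusted p = 2.92e-06) and in Jarid2 null endoderm by 2.41 (SE 0.317, adjusted p = 4.02e-06), and it rose in Mtf2 null endoderm by 1.90 (SE 0.169, adjusted p = 1.87e-08). It was the 1 member called in each, against 8.15%, 8.5% and 8.93% of genes. In mesoderm it rose in Mtf2 null cells by 1.82 (SE 0.207, adjusted p = 1.52e-06), the 1 member called there, against 6.28% of genes. The mesoderm change was -0.49 in WT and -1.11 in Jarid2 null cells (adjusted p = 0.00761), and neither was called.

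Tested directly, the course of Pdgfra differed between Mtf2 null and WT cells. The change to 48 h in Mtf2 null exceeded that in WT by 4.77 on the log2 scale (SE 0.391, edgeR adjusted p = 4.44e-08) in endoderm and by 2.31 (SE 0.387, adjusted p = 0.000382) in mesoderm. Members called were 2 in endoderm, against 5.24% of genes, and 1 in mesoderm, against 2.71%. The mesoderm call was lost in 5 of 8 fits that left out 1 library, without either Mtf2 null library of 48 h, Mtf2 null undifferentiated replicate 1, WT 48 h replicate 2 or WT undifferentiated replicate 2 (adjusted p from 0.00149 to 0.00939). In all 8 of those fits the difference had the same sign, from 2.02 to 2.65.

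Pdgfrb (ENSMUSG00000024620, on the plus strand of chromosome 18 from 61045150 to 61085061), the receptor of mural cells and their precursors, was lower in Mtf2 null than in WT cells, at low counts. Undifferentiated WT libraries stood at 4.53, 3.32, 3.5 and 3 CPM (46, 39, 37 and 32 counts) and Mtf2 null libraries at 0.84, 1.04, 0.586 and 0.686 CPM (9, 10, 7 and 8 counts) over both series. The groups did not overlap, and the joint edgeR log2 change was -2.17 (SE 0.242, adjusted p = 2.42e-06), a 4.5-fold lower level. Within a series the change was -2.34 (SE 0.394, adjusted p = 6.35e-05) in endoderm, a call that was lost without Mtf2 null replicate 1 (-2.22, adjusted p = 0.00225) or replicate 2 (-2.45, adjusted p = 0.00118). It was -2.05 (SE 0.455, adjusted p = 0.00118) in mesoderm, short of the threshold.

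At 48 h in mesoderm, Pdgfrb stood at 2.42 and 1.96 CPM (37 and 24 counts) in WT and at 0.454 and 0 CPM (5 and 0 counts) in Mtf2 null libraries. It was called lower, with a log2 change of -3.30 (SE 0.594, edgeR adjusted p = 0.000272). The call rested on few counts: it was lost without Mtf2 null replicate 2, the library at 0 (-2.25, adjusted p = 0.00635), or WT replicate 1 (-3.13, adjusted p = 0.00325), and when only the 2 groups compared were fitted (-3.34, adjusted p = 0.00712). Without Mtf2 null replicate 1 the remaining mutant library was at 0, so no fold is given. In endoderm at 48 h the WT libraries were at 1.73 and 0.753 CPM (20 and 8 counts). The Mtf2 null libraries were at 0.748 and 0.558 CPM (10 and 8 counts). The nearest CPM values were almost equal and the counts overlapped, and the difference was not called by edgeR (-0.94, adjusted p = 0.0899). At 5 h the change was -2.16 in mesoderm (adjusted p = 0.00521) and -1.90 in endoderm (adjusted p = 0.00243), and at 24 h it was -1.70 (adjusted p = 0.0117) and -0.82 (adjusted p = 0.157), with no call. The change of Pdgfrb from undifferentiated cells to 48 h was not called in any genotype or series, the WT endoderm value being -1.37 (adjusted p = 0.00495).

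Pdgfa, the ligand of Pdgfra, changed with time rather more than with genotype in mesoderm. In WT mesoderm it stood at 33.7 and 28 CPM in undifferentiated cells, 63.9 and 67.5 CPM at 5 h, 91.3 and 89 CPM at 24 h and 66 and 60.7 CPM at 48 h. The WT groups of different times did not overlap except that 5 h and 48 h did, and the highest level was at 24 h. By edgeR the log2 change from undifferentiated cells was 1.09 at 5 h (SE 0.141, adjusted p = 1.1e-05), 1.55 at 24 h (SE 0.14, adjusted p = 8.32e-08) and 1.04 at 48 h (SE 0.14, adjusted p = 7.9e-06). Pdgfa was the 1 member called at each time, against 4.13%, 6.96% and 8.64% of genes. The 5 h call sat near the size limit and was lost without WT undifferentiated replicate 2 (0.97), as was the 48 h call without WT 48 h replicate 1 (0.98) or WT undifferentiated replicate 2 (0.91).

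Mutant mesoderm followed a like course. The Mtf2 null libraries stood at 30.2 and 39.7, 76.8 and 73, 120 and 124, and 74.6 and 65.1 CPM at the 4 times, and the Jarid2 null libraries at 25.9 and 18.3, 57 and 58.9, 74 and 71.3, and 68.3 and 74.6 CPM. To 48 h Pdgfa rose in Jarid2 null cells by 1.69 (SE 0.143, edgeR adjusted p = 1.74e-08), the 1 member called, against 8.5% of genes. In Mtf2 null cells the change of 1.00 (adjusted p = 1.84e-05) stopped just short of the size limit, and the call was made without Mtf2 null undifferentiated replicate 2 or 48 h replicate 2. The change to 48 h in Mtf2 null mesoderm differed from that in WT by -0.04.

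In endoderm Pdgfa went up and then down. WT libraries stood at 31 and 24.5 CPM in undifferentiated cells, 53.3 and 54.3 CPM at 5 h, 58.4 and 62.7 CPM at 24 h and 15.9 and 15.8 CPM at 48 h. The log2 change at 24 h was 1.13 (SE 0.108, edgeR adjusted p = 1.24e-07), the 1 member called against 5.31% of genes, and the call was lost without WT undifferentiated replicate 2 (0.97). At 5 h the change was 0.95 (adjusted p = 3.99e-06), under the size limit. There 0 of 4 members were called by edgeR or by DESeq2 against 2.1% of genes, although 4 had an unadjusted p under 0.05, and without WT undifferentiated replicate 1 Pdgfa was called (1.14). At 48 h the change of Pdgfa was -0.81 (adjusted p = 1.76e-05), also under the size limit.

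At 48 h Pdgfa was higher in Mtf2 null than in WT endoderm. It stood at 34.3 and 33.8, 53.4 and 46.8, 93.8 and 86.4, and 39.1 and 40.001 CPM at the 4 times. The 5 h values overlapped those of WT, and at 48 h the level was 2.5-fold above WT (log2 change 1.32, SE 0.115, edgeR adjusted p = 8.76e-09), and at 24 h 0.57 on the log2 scale (adjusted p = 0.000186), below the size limit. The change to 48 h exceeded that in WT by 1.03 (SE 0.16, adjusted p = 8.91e-05), and this call was lost without the filter on low counts (0.97) or without WT undifferentiated replicate 1 (0.84). Jarid2 null endoderm stood at 23 and 21.8, 50.7 and 55.7, 59.4 and 57.7, and 17.8 and 19.7 CPM, and no difference from WT was called.

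The change of Pdgfa to 48 h was larger in mesoderm than in endoderm in WT cells by 1.85 on the log2 scale (SE 0.187, edgeR adjusted p = 1.98e-08) and in Jarid2 null cells by 1.95 (SE 0.184, adjusted p = 3.22e-09). It was the 1 member called in each, against 1.35% and 1.97% of the 19601 genes tested. In Mtf2 null cells the difference was 0.79 (adjusted p = 0.00814), and 0 of 4 members were called by edgeR or DESeq2 against 0.617% of genes, with 2 at an unadjusted p under 0.05. For Pdgfra the difference was 2.37 in WT (adjusted p = 0.00319), 1.30 in Jarid2 null (adjusted p = 0.0954) and -0.07 in Mtf2 null cells (adjusted p = 0.981), none of them called.

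Pdgfb, the ligand of Pdgfrb, was held by 7 to 42 counts in a library and was not called in any comparison. Undifferentiated WT libraries stood at 2.76, 1.96, 2.84 and 2.44 CPM over both series and Mtf2 null libraries at 1.49, 1.04, 0.837 and 1.2 CPM. These did not overlap, and the joint edgeR log2 change was -1.10 (SE 0.299, adjusted p = 0.00594). At 48 h the WT libraries stood at 0.654 and 0.897 CPM in mesoderm and 1.47 and 0.659 CPM in endoderm and the Mtf2 null libraries at 1.82 and 1.11 CPM and 1.65 and 1.33 CPM, which overlapped in endoderm. From undifferentiated cells to 48 h the WT mesoderm change was -1.60 (adjusted p = 0.00586), and the change in Mtf2 null exceeded that in WT by 1.79 in mesoderm (adjusted p = 0.0471) and 1.83 in endoderm (adjusted p = 0.0278), short of the threshold.

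Jarid2 null cells showed no called difference in any of the 4 genes. Over the 4 times and 2 series, edgeR called 0 of 32 tests, DESeq2 called 0, and 5 had an unadjusted p under 0.05. The share of all genes called was itself small, 0.37%, 0%, 1.97% and 0.169% in mesoderm and 0.742%, 0.0363%, 0.0312% and 0.125% in endoderm at the 4 times in order. Jointly over both series of undifferentiated cells 0 of 4 members were called against 1.07%, 1 of them with an unadjusted p under 0.05 (Pdgfa, -0.41, adjusted p = 0.02). The courses to 48 h gave 0 of 4 in mesoderm against 0.0545% of genes and 0 of 4 in endoderm against 0.514%, with 2 and 1 at an unadjusted p under 0.05 and 0 by DESeq2. Pdgfra in Jarid2 null mesoderm stood at 1.13 and 1.12 CPM at 24 h, against 2.08 and 1.9 CPM in WT, without overlap (log2 change -0.81, adjusted p = 0.107).

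Markers of several cell types differed between Mtf2 null and WT cells beside Pdgfra. At 48 h 6.82% of all genes tested were called in mesoderm and 10.5% in endoderm. A count of 1 in a list is therefore not taken as a change of that list. Of 6 primitive and visceral endoderm markers (Sox7, Dab2, Lama1, Gata4, Afp and Ttr) 5 were tested, and all 5 were called higher at 48 h in both series. Their summed level at 48 h was 80.5 to 91.6 CPM in WT and 1300 to 1305 CPM in Mtf2 null mesoderm, and 41.3 to 52.8 CPM and 1639 to 1874 CPM in endoderm, most of it Lama1, a laminin chain of basement membrane. In undifferentiated cells the sum was 177 to 223 CPM in WT and 719 to 960 CPM in Mtf2 null libraries. Of 3 definitive endoderm markers 2 were higher at 48 h in each series, and of 4 tested cardiac and lateral mesoderm markers 1 was higher in mesoderm and 2 in endoderm. The cardiac and lateral mesoderm list was Hand1, Tbx20, Isl1, Gata4 and Tnnt2. Gata4 is also in the primitive and visceral endoderm list, so the counts of these lists are not independent. Others were lower at 48 h: of 4 neural ectoderm markers 1 was called lower in mesoderm, and 2 lower and 1 higher in endoderm, with sums of 26.5 to 29.2 CPM in Mtf2 null and 47.9 to 67.5 CPM in WT mesoderm and 17.1 to 23.0 and 61.5 to 89.4 CPM in endoderm. Of 4 pluripotency markers 1 was lower in each series, with sums of 945 to 967 CPM against 1277 to 1278 CPM in mesoderm and 963 to 1023 against 1034 to 1112 CPM in endoderm. Mural markers (Rgs5, Cspg4, Acta2, Tagln and Kcnj8) summed to 11.0 to 11.1 CPM in Mtf2 null and 11.9 to 16.0 CPM in WT mesoderm at 48 h. In endoderm their sums were 12.3 to 14.9 CPM in Mtf2 null and 20.1 to 21.1 CPM in WT. A change in the number of cells of a type and a change in RNA per cell, up or down, cannot be told apart in bulk samples. The part of these cells in the difference in Pdgfra was not tested.

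The genes most like Pdgfra over the 24 libraries of each series, of 10841 searched, were Pth1r (Pearson r of log2 CPM 0.945 in mesoderm and 0.921 in endoderm), Col4a2 (0.917 and 0.915), Gata6 (0.915 and 0.922), Lama1 (0.907 and 0.968) and Col4a1 (0.906 and 0.912). Gata6 encodes a transcription factor of primitive endoderm and heart, and Col4a1 and Col4a2 the chains of basement membrane collagen. For Pdgfa the likest were Sh3gl2 (0.860 and 0.873), Arhgef26 (0.880 and 0.857) and Slc18b1 (0.836 and 0.896). These correlations describe libraries that share genotype, time and depth. Pdgfrb and Pdgfb had mean levels below 5 CPM and were not searched.

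Of 26 other genes of PDGF signalling 25 were tested in each series. In undifferentiated Mtf2 null cells 3 were higher and 1 was lower in each series, beside 11.1% and 11% of all genes called in mesoderm and endoderm, with a median log2 change of 0.308 in mesoderm and 0.264 in endoderm beside -0.0213 and -0.0484 over all genes tested. Pdgfc, a further ligand of the Pdgfra receptor, stood at mean levels of 10.0 and 10.4 CPM in WT and 51.7 and 51.1 CPM in Mtf2 null cells (joint log2 change 2.34, edgeR adjusted p = 6.35e-11). St14, a membrane serine protease, was 4.40-fold higher jointly. Kit, another receptor of the same class, was lower, at 16.3 and 16.5 CPM against 48.9 and 46.8 CPM (joint log2 change -1.53, adjusted p = 3.70e-09).

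At 5 h 2 of the pathway genes were higher and 1 was lower in each series of Mtf2 null cells (7.56% and 7.61% of all genes called), and at 24 h 1 was higher and 1 lower (5.72% and 6.58%). At 48 h 2 of 25 were higher in mesoderm (Csf1r and Plat) and 7 of 25 in endoderm, with none lower, beside 6.82% and 10.5% of all genes called, and the medians were 0.106 and -0.0171 beside 0.00679 and -0.0165 over all genes. Plat, the protease that activates PDGF-C, stood at 1.62 and 0.676 CPM in WT and 15.5 and 9.46 CPM in Mtf2 null mesoderm and endoderm, a log2 change of 3.27 and 3.79. Kit was then higher in Mtf2 null endoderm, 30.7 against 4.68 CPM (log2 change 2.69), so its direction was opposite to that in undifferentiated cells. Csf1r, the receptor of macrophage growth factors, was at 0 in all WT libraries at 48 h and at means of 1.73 and 10.1 CPM in Mtf2 null cells. In Jarid2 null cells 3 pathway genes were lower in mesoderm at 24 h (Pdgfc, Kit and Lrig1, -1.23, -1.20 and -1.01), beside 1.97% of all genes, and 0 were called by edgeR in the other 7 comparisons.

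In bulk embryoid bodies each line and day was 1 sample by the labels, and values are means of its columns, as counts that the authors divided by a size factor. Most samples have an r1 and an r2 column, many with different library numbers, and these were averaged and not used as replicates of a test. Pdgfra, the gene for which these libraries were known, stood at 52.5, 79.4, 66.7 and 361 normalised counts on days 0, 2, 4 and 7 in libraries labelled Mtf2 null and at 13.3, 4.24, 2.52 and 10.4 in Pcl1-3 WT. It stood at 61.9, 69.4, 728 and 1479.9 in libraries labelled Jarid2 null and at 8.11, 2.46, 11.2 and 233 in JM8 WT. Both labelled mutants were above their own WT line on all 4 days, by a mean log2 ratio of 3.77 ± 1.32 (SD over 4 days) and 3.92 ± 1.52. The size of these ratios rests on few WT reads. Pdgfra held 38, 7, 3 and 19 recovered reads in Pcl1-3 WT and 21, 6, 15 and 418 in JM8 WT on the 4 days. Without day 0, where the labels are in doubt, the means were 4.40 and 4.30. Mtf2 RNA does not settle the labels of the later days either. Libraries labelled Eed null stood at 77.023, 38.4, 55.7 and 595 and J1 WT at 18.6, 16.5, 384 and 923. They were above J1 WT on days 0 and 2 and below it on days 4 and 7, with a mean ratio of -0.06 ± 2.11 that turned positive without day 4 (0.84) or day 7 (0.13).

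The WT lines themselves differed widely. On day 7 Pdgfra spanned 10.4 to 923 normalised counts and Pdgfrb 38.6 to 499 among Pcl1-3 WT, JM8 WT and J1 WT, lowest in Pcl1-3 WT and highest in J1 WT for both receptors. A log2 ratio over 1 on each of the 4 days was found for 1 of 4 members in libraries labelled Mtf2 null (Pdgfra), for 2 labelled Jarid2 null (Pdgfra and Pdgfrb) and for 0 labelled Eed null, where 2.33%, 2.15% and 1.99% of genes had one. On the 3 days after day 0 alone the counts were again 1, 2 and 0, against 5.83%, 3.36% and 2.62% of genes. The genes were chosen by the level of Pdgfra in the libraries labelled Mtf2 null against Pcl1-3 WT. Both counts of 1 for that label rest on the values used for this choice. They cannot test the 4 genes against the share of all genes, and no enrichment is read from them.

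**Figure D3:**
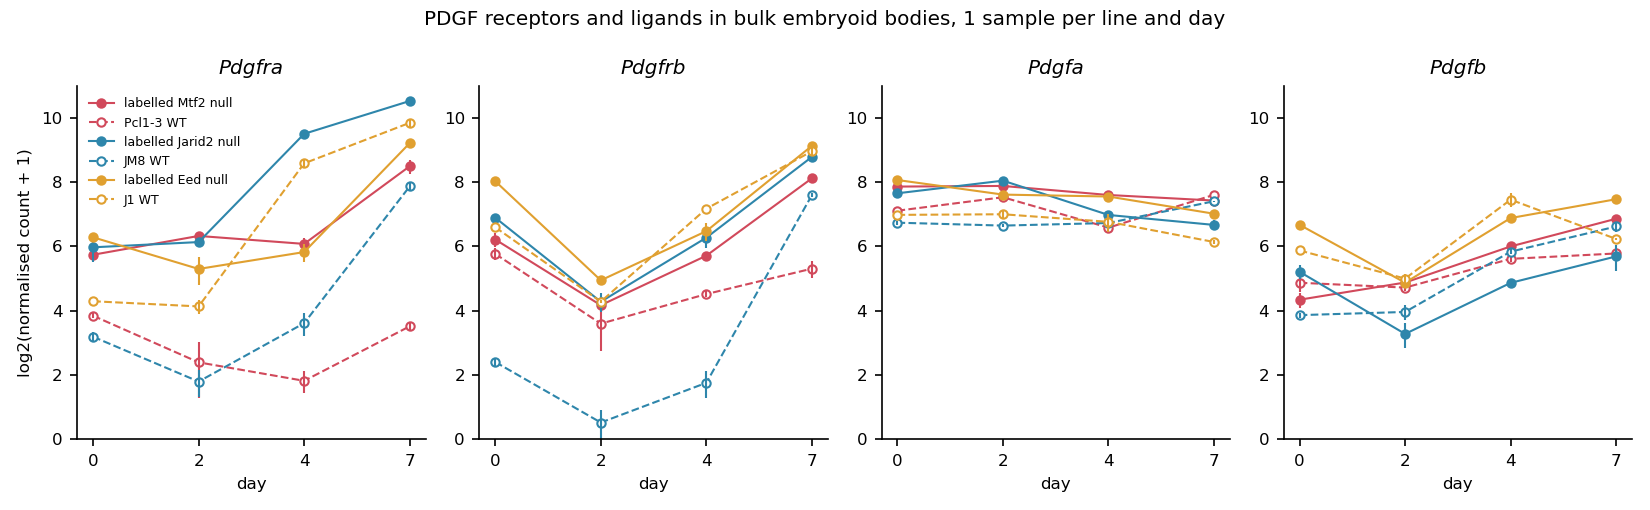
Level of the 4 genes in bulk embryoid bodies as log2(normalised count + 1) (y axis) by day (x axis) in 6 lines; points are means of the columns of a sample and bars their range. Pdgfra climbs above 200 normalised counts by day 7 in 5 of 6 lines and stays at 10.4 in Pcl1-3 WT.

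Pdgfrb stood at 73.4, 17.0, 51.5 and 278 normalised counts in libraries labelled Mtf2 null and at 53.5, 11.1, 21.9 and 38.6 in Pcl1-3 WT. In libraries labelled Jarid2 null it stood at 118, 18.4, 76.4 and 442, and in JM8 WT at 4.28, 0.429, 2.37 and 193. Libraries labelled Eed null stood at 261, 29.8, 88.2 and 561 and J1 WT at 95.9, 18.4, 144 and 499. Every line had its lowest Pdgfrb value on day 2, and all but Pcl1-3 WT had the highest on day 7. The mean log2 ratio was 1.26 for the Mtf2 null label and 3.49 for the Jarid2 null label, or 1.53 and 3.16 without day 0. In JM8 WT Pdgfrb held only 11, 1, 3 and 345 recovered reads on the 4 days. Pdgfa lay between 69.5 and 268 normalised counts in all 24 samples and Pdgfb between 8.69 and 177, with mean log2 ratios of 0.46 to 0.84 for Pdgfa and -0.31 to 0.33 for Pdgfb over the 3 labels. Without the doubted day 0 these were 0.30 to 0.76 for Pdgfa and -0.86 to 0.54 for Pdgfb, lowest for the Jarid2 null label.

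In single cells, RNA was counted by unique molecular identifiers (UMIs) in 4949 cells of 16 libraries, with medians of 4997 to 10603 UMIs per cell in a library. The 384 barcodes were those of the plate and recurred between libraries by design. Pdgfa was found in 30.006% of cells (80.3 UMI CPM), Pdgfra in 8.57% (25.7 UMI CPM), Pdgfb in 5.92% (12.1 UMI CPM) and Pdgfrb in 5.68% (11.4 UMI CPM). With 1 library per genotype and day no difference was tested, and intervals cover counting error only.

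In single cells both receptors were low on day 0 and higher by day 10. On day 0 Pdgfrb stood at 2.68 UMI CPM in WT, 0 in Mtf2 null, 0.623 in Jarid2 null and 5.89 in Eed null cells. Pdgfra had 0 UMIs in 2989314 on day 0 in WT, which allows up to 1.00 UMI CPM, and stood at 2.33 on day 4, 53.2 on day 7 (95% Poisson interval 43.9 to 63.969) and 86.6 on day 10 (71.8 to 103). In Mtf2 null cells it stood at 0, 1.10, 45.3 and 58.8 (49.021 to 70.0 on day 10). In Jarid2 null cells it stood at 2.18, 1.59, 6.82 (3.63 to 11.7) and 66.3 (54.7 to 79.5), so that on day 7 it was below WT by more than the counting error. In Eed null cells it stood at 0.295, 4.43, 14.4 (10 to 20.2) and 244.8 (219 to 273), below WT and Mtf2 null cells on day 7 and the highest of the 4 genotypes on day 10. Cells with a Pdgfra UMI on day 10 made up 54.5% of the 202 cells of the Eed null library, 20.6% of WT, 17.1% of Mtf2 null and 20.8% of Jarid2 null cells. With each cell thinned to 2500 UMIs the shares were 35.2% in Eed null, 13.6% in WT, 11.9% in Mtf2 null and 11.2% in Jarid2 null libraries.

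**Figure D4:**
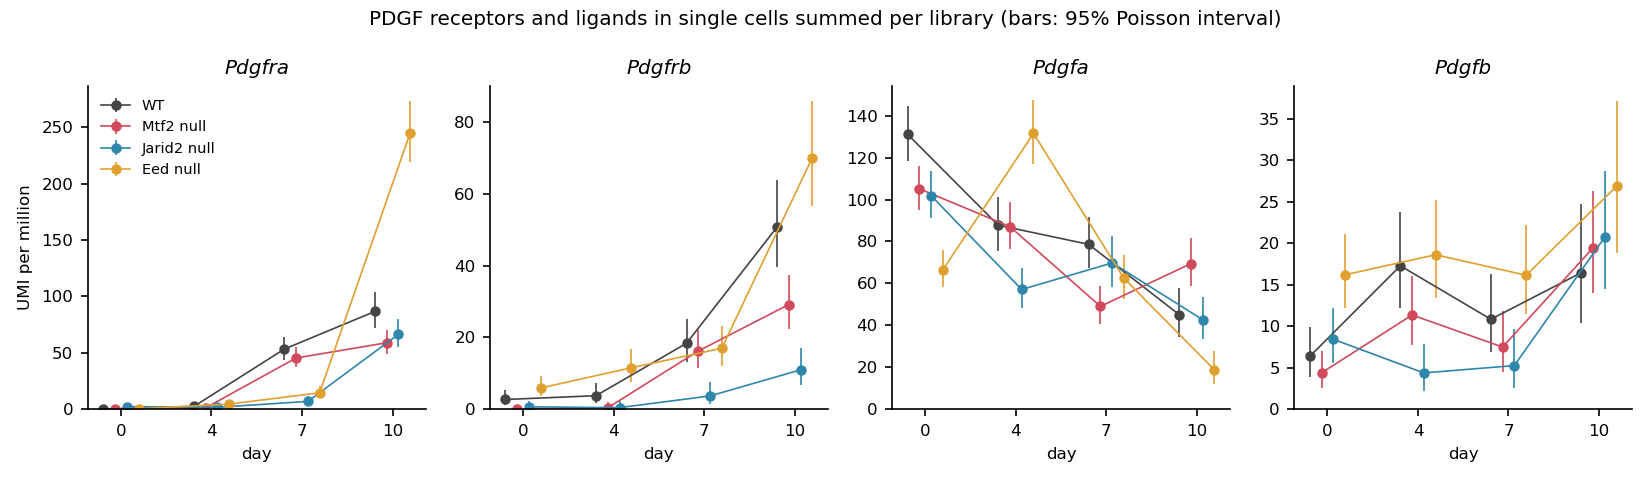
UMI CPM of the 4 genes (y axis) by day of embryoid body culture (x axis) in single-cell libraries of 4 genotypes; each point sums the cells of 1 library and bars are 95% Poisson intervals. Pdgfra and Pdgfrb are highest on day 10 in all 4 genotypes, and Pdgfra reaches 244.8 in Eed null cells.

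Pdgfrb had a like course, reaching 50.8 UMI CPM (39.7 to 64.1) in WT on day 10, 29.2 (22.4 to 37.3) in Mtf2 null, 70.2 (56.7 to 85.9) in Eed null and 10.9 (6.59 to 17.1) in Jarid2 null cells. The intervals of Mtf2 null and Jarid2 null cells lay below that of WT. Pdgfa was lower on each later day in WT, with 131, 87.8, 78.6 and 45.1 UMI CPM on days 0, 4, 7 and 10. The mutants had other courses. Pdgfa stood at 105, 87.1, 49.028 and 69.5 in Mtf2 null, at 102, 57.1, 69.8 and 42.6 in Jarid2 null and at 66.6, 131.6, 62.4 and 18.7 in Eed null cells, so that Mtf2 null cells had their lowest value on day 7 and Eed null cells their highest on day 4. Pdgfb stayed between 4.36 and 26.9 UMI CPM in all 16 libraries.

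The authors made 22 clusters from the most variable genes, and whether these 4 were among them is not known here, so levels by cluster are a description. Most receptor UMIs lay in a few clusters. Cluster 13 held 37.98% of all Pdgfra UMIs (248 UMI CPM, 224 to 274), cluster 4 held 32.3% (147, 131 to 164) and cluster 14 held 13.9% (93.7, 78.7 to 111). Clusters 13 and 4 are classed as mesodermal by the authors, as is cluster 19, where Pdgfra was at 9.43 UMI CPM. Of the markers used here cluster 4 had the highest mural sum (1274 UMI CPM, with Acta2 at 759) and a cardiac and lateral mesoderm sum of 1123. Cluster 13 had 647 and 576, and cluster 14 had an early mesoderm sum of 1174. Cluster 20, with an early mesoderm sum of 837, had Pdgfra at 30.7 (15.3 to 54.9). Cluster 21, classed as endodermal, with a primitive and visceral endoderm sum of 2099, had Pdgfra at 88.6 (62.4 to 122). Clusters 0 and 3, of undifferentiated cells, had 0 Pdgfra UMIs, which allows up to 0.757 and 1.02 UMI CPM. By share of cells, 55.3% of 226 cells in cluster 13 and 42.6% of 324 in cluster 4 had a Pdgfra UMI.

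Pdgfrb was highest in clusters 13 and 4 as well, at 75.9 and 74.7 UMI CPM, which held 26.3% and 37.2% of its UMIs. Elsewhere it was at 20.4 or less, with 20.4 in cluster 14, 19.5 in cluster 20, 4.79 in cluster 21 and 2.36 in cluster 19. Within cluster 4 it was found in 31.9% of cells with a Pdgfra UMI and 22.0% of cells without. These cells had a median of 6649 and 5353 UMIs, so their depth differed in the same direction. In cluster 13 the shares were 38.4% and 24.8%, at medians of 6028 and 4434 UMIs.

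**Figure D5:**
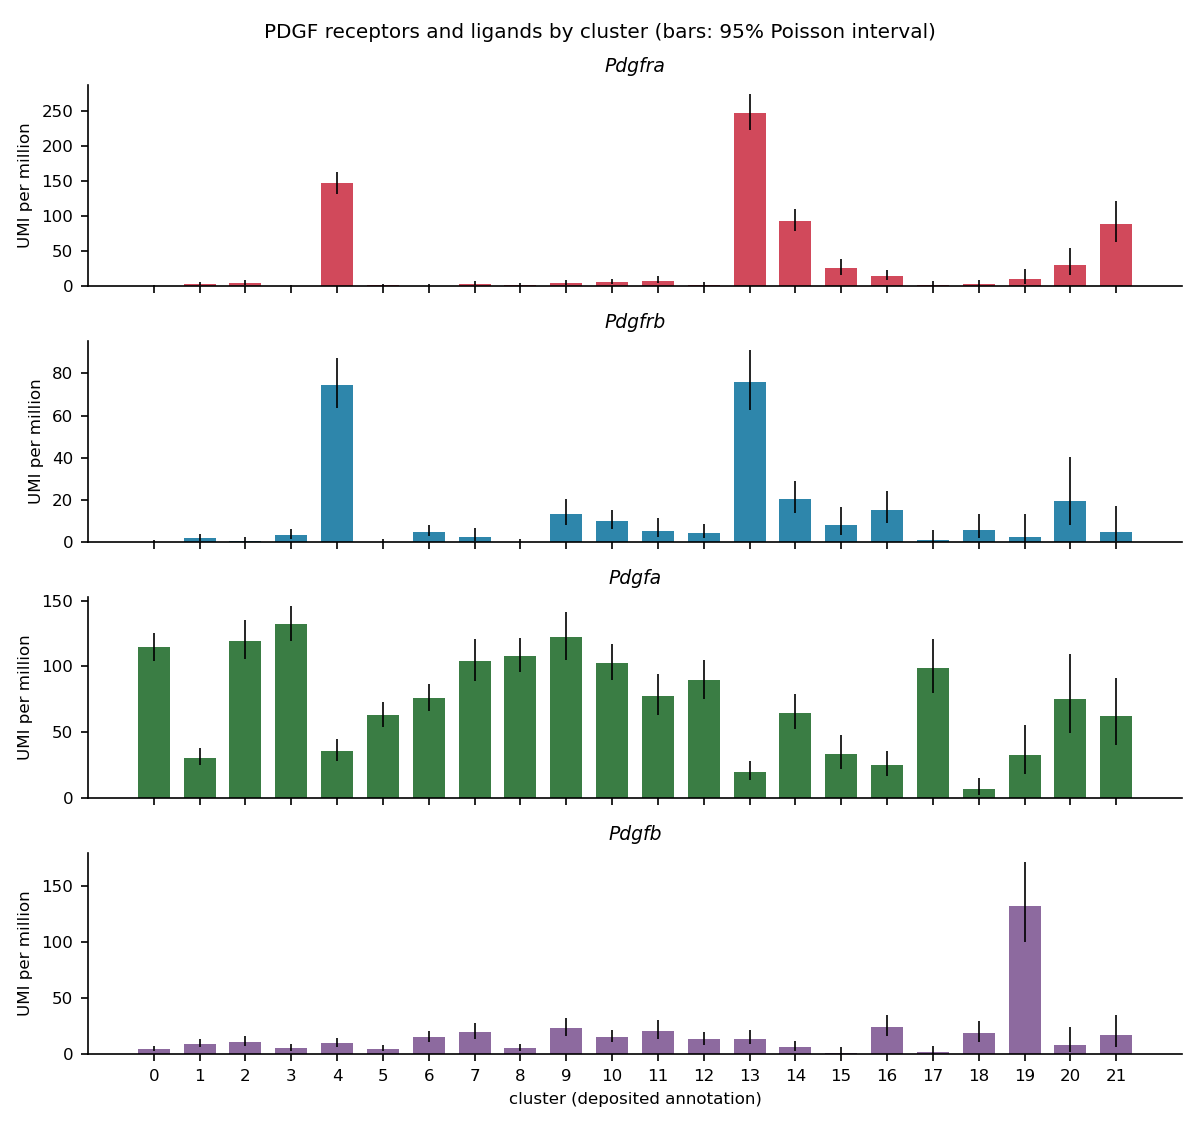
UMI CPM of the 4 genes (y axis, from 0) in each of the authors' 22 clusters (x axis); bars sum the cells of a cluster and lines are 95% Poisson intervals. Pdgfra and Pdgfrb stand out in clusters 4 and 13, Pdgfb in cluster 19 at 132, and Pdgfa is lowest in clusters 13 and 18.

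The genotypes were unevenly spread over these clusters. Cluster 13 held 197 Eed null, 25 Jarid2 null, 4 Mtf2 null and 0 WT cells, and 81.7% of the day 10 Eed null library. Cluster 4 held 159 Mtf2 null cells, 122 of WT, 40 of Jarid2 null and 3 of Eed null, among them 42.1% of the day 10 WT library. Inside cluster 4 Pdgfra stood at 172 UMI CPM (144 to 205) in WT, 137 (116 to 160) in Mtf2 null and 123 (86.1 to 170) in Jarid2 null cells, with overlapping intervals. Pdgfrb there stood at 110 (87.6 to 137) in WT, 60.1 (46.7 to 76.2) in Mtf2 null and 44.4 (23.6 to 75.9) in Jarid2 null cells. The days were mixed differently, 32 cells of day 7 and 90 of day 10 in WT and 79 and 80 in Mtf2 null. On day 7 alone Pdgfrb in cluster 4 stood at 97.96 (61.4 to 148) in WT and 37.3 (23.4 to 56.5) in Mtf2 null cells. On day 10 alone it stood at 115 (88.1 to 149) in WT, 84.8 (62.1 to 113) in Mtf2 null and 49.1 (25.4 to 85.8) in Jarid2 null cells, and the Mtf2 null interval overlapped that of WT.

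The ligands had other distributions over the clusters. Pdgfb reached 132 UMI CPM (99.7 to 171) in cluster 19, in 38.6% of 57 cells, and at most 24.1 in any other cluster. Cluster 19 had an endothelial sum of 1832, with Kdr, a receptor of endothelium and its precursors, at 1247 and Cdh5, the cadherin of endothelial junctions, at 248. Pdgfra stood at 9.43 in that cluster. Pdgfa was broad, from 98.7 to 132 in clusters 0, 2, 3, 7, 8, 9, 10 and 17. Of the 4 clusters with the highest Pdgfra, it stood at 35.8 in cluster 4 and 19.8 (13.4 to 28.3) in cluster 13, but at 64.5 in cluster 14 and 62.2 in cluster 21. In cluster 14, 15 of the 66 cells with a Pdgfra UMI also held Pdgfa (22.7%), beside 26.6% of the cells without one. Clusters 1, 15 and 16 had Pdgfa at 24.965 to 33.4 with Pdgfra at 2.70 to 25.3, and the lowest Pdgfa, 6.93, was in cluster 18.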

How the data were processed

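The 4 genes and all gene lists were chosen with earlier results of these data known. The authors quantified the directed series with Salmon as estimated counts per gene on GRCm38 (mm10), from RNA depleted of ribosomal RNA. Of the values, 74.9% in the mesoderm and 73.1% in the endoderm table were whole numbers, and all were rounded here. For the bulk embryoid bodies the authors deposited a signal, gene counts that each column's DESeq2 size factor had scaled. In 45 of 46 columns each value was a whole multiple of 1 read within a tolerance of 0.02, so reads were recovered (3005707 to 22944105 per column) for an added count test, in which edgeR with the day as a block called 996, 1934 and 978 genes at an adjusted p under 0.05 in the libraries labelled Mtf2 null, Jarid2 null and Eed null, and 11, 14 and 0 at the thresholds used for the directed series. For single cells the authors deposited UMI counts (Bowtie2, HTSeq), from which they had removed wells with few genes, together with their clusters. Aligner versions are not given in the sources used here.

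Directed counts were tested with edgeR 4.0.16 (quasi-likelihood, TMM, filterByExpr) in R 4.3.3 on all libraries of a series with a mean for every genotype at each time. A joint model of the undifferentiated libraries held genotype and series. Calls used a Benjamini-Hochberg adjusted p under 0.001 over all genes tested and an absolute log2 change over 1. Alternatives were DESeq2 1.42.0, RLE scaling, no filter on low counts, only the 2 groups compared, a replicate block and each library left out in turn. The test was tried on simulated data with 200 changed genes. Mean log2 ratios in embryoid bodies used a pseudocount of 1. UMIs were summed per library or cluster, with 95% intervals (exact Poisson for levels, Clopper-Pearson for shares) that cover only counting error, and a count of 0 was given the limit of 3 counts. Doublets were not called, and each well of a plate was meant to hold 1 cell.

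The named genes are the 4 members, the targeted genes Mtf2, Jarid2 and Eed, the pathway genes called in a main comparison (at most 4 by size of change), the genes most like a member (log2 CPM with a prior count of 2) and the markers of each cell type. Gene positions are from GENCODE M21, and promoter sequences from RefSeq.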

Additional observations from a re-analysis of the deposited data

Results flagged for a closer look

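Results were singled out here when a test of the difference between 2 courses passed the threshold. For Pdgfra, the change from undifferentiated cells to 48 h exceeded that in WT by 4.77 on the log2 scale in Mtf2 null endoderm and by 2.31 in Mtf2 null mesoderm. For Pdgfa, the change in Mtf2 null endoderm exceeded that in WT by 1.03. The change of Pdgfa to 48 h was larger in mesoderm than in endoderm by 1.85 in WT and by 1.95 in Jarid2 null cells. Dixon's test was run on the level of each of the 4 genes in the 4 undifferentiated libraries of each genotype, over both series. No value stood apart in these 12 sets, of which chance flags about 5%.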

How the results depend on the processing

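Calls of Pdgfra in Mtf2 null against WT held under every alternative run (DESeq2, RLE scaling, no filter on low counts, only the 2 groups compared, replicate block, each library left out), with log2 changes from 6.36 to 7.21 in endoderm and from 4.66 to 5.24 in mesoderm at 48 h over the libraries left out. Of the 4 members, the number called in mesoderm Mtf2 null against WT went from 1 to 2 in undifferentiated cells with no filter, with DESeq2 or with only the 2 groups compared, from 1 to 2 at 5 h with no filter, and from 2 to 1 at 48 h with only the 2 groups compared, Pdgfrb being the gene concerned. The number called for the endoderm course of Mtf2 null against WT went from 2 to 1 with no filter, Pdgfa being lost (0.97). Over the libraries left out, members called ranged from 1 to 2 for mesoderm Mtf2 null against WT at 48 h, endoderm Mtf2 null against WT undifferentiated, the Mtf2 null mesoderm change to 48 h and the endoderm course of Mtf2 null against WT, and from 0 to 1 for the WT mesoderm changes to 48 h and 5 h, the WT endoderm changes to 5 h and 24 h and the mesoderm course of Mtf2 null against WT. The difference of -0.04 in the Pdgfa mesoderm course changed sign over the libraries left out, from -0.23 to 0.14 (0.05, 0.14, 0.02 and 0.09 in the positive ones). A fit without 1 library leaves its group with 1, which is assumed to vary like the others, and such fits were not run for the Mtf2 null difference between mesoderm and endoderm. DESeq2 gave no adjusted p for 8 results of the members.

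Same-numbered libraries did not deviate together: over 66 pairs of groups the median correlation of their deviations was 0.00688 in mesoderm and 0.0102 in endoderm, over 0.1 in 6 and 4 pairs, so the numbers were not taken to pair them. With a replicate block the change of Pdgfra at 48 h was 4.90 in mesoderm and 6.72 in endoderm, and no call of a member changed. No library was a copy of another.

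The mean log2 ratio of Pdgfra in embryoid bodies labelled Eed null, -0.06, became 0.84 leaving out day 4 and 0.13 leaving out day 7. In single cells, thinning to 2500 UMIs gave Pdgfra at 71.3 UMI CPM in Mtf2 null cells of day 10 and Pdgfrb at 107.1 in cluster 13, and weighting cells alike gave Pdgfra at 92.2 in Jarid2 null and 290.9 in Eed null cells of day 10 and 317.5 in cluster 13. The causes were not tested. Low counts limit Pdgfrb and Pdgfb, and 2 libraries per group limit every call near the threshold. Leaving out day 0 of the embryoid bodies for the count of members over the ratio limit was chosen after seeing the data.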

Other observations

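Undifferentiated Mtf2 null cells differed between the assays. Pdgfra had 0 UMIs in the single-cell library of day 0 Mtf2 null cells, which allows up to 0.771 UMI CPM. In the directed series the 4 undifferentiated Mtf2 null libraries stood at 2.05 to 2.88 TPM and the 4 WT libraries at 0.308 to 0.778 TPM. The assays differ in priming, depth and unit, and the source of the difference was not tested.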
